A study of Mus musculus with 9 samples.

Results

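Chemokines are small secreted proteins that guide the movement of leukocytes, and their receptors are membrane proteins coupled to G proteins. The 10 genes described here are 7 chemokine ligands (Ccl2, Ccl3, Ccl4, Ccl5, Ccl7, Ccl9 and Cxcl2) and 3 chemokine receptors (Ccr1, Ccr2 and Cxcr4). They were found in the deposited expression table by their gene symbol, each matched 1 gene, and they are 10 of the 56691 genes listed. RNA was sequenced from RAW264.7, a line of mouse macrophages that forms osteoclast-like cells, the cells that resorb bone, when stimulated with RANKL, the cytokine that drives osteoclast formation. All 9 libraries came from this line after 3 days of culture. The Control group was untreated, the RANKL group received RANKL, and the RANKL+UD group received RANKL together with UD (uridine, a pyrimidine nucleoside), with 3 libraries in each. The labels name each library a replicate biosample and give no dose of UD. The adjusted p values below judge group differences against the spread between these biosamples of a single cell line.

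In background, the monocyte attractants CCL2 and CCL7 act through CCR2, and CCL3, CCL5 and CCL9 act through CCR1. CXCL2 attracts neutrophils through CXCR2, and CXCR4 is the receptor of CXCL12, a chemokine of bone marrow stroma. Osteoclasts and their precursors are known to carry several of these receptors, and CCL9 with CCR1 is a ligand and receptor pair known from osteoclasts.

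Levels are given as FPKM, the number of fragments counted per length of exon and per library total, which the authors computed from the counts, gene lengths and library totals and deposited beside the counts. Fold changes are on the log2 scale from edgeR's quasi-likelihood test on the counts, with the SE, and a gene is called higher or lower at an adjusted p under 0.05 over the 11995 genes that reached an FPKM of 1 in 3 or more libraries. Of the 10 genes, 9 passed this filter and Ccl7 did not. Library totals ranged from 15951800 to 19746862. The summed FPKM of 8 macrophage markers was between 9372 and 9964 in the Control libraries, between 2496 and 2742 with RANKL, and between 2177 and 2311 with RANKL+UD, with Mertk near 0 throughout. Lyz2, the lysozyme of macrophages, made up most of this sum, with 8000 FPKM in Control, 1431 in RANKL and 1285 in RANKL+UD. Not every marker moved with the sum, as Cd68, a lysosomal protein, rose by 0.60 on the log2 scale with RANKL (adjusted p = 1.07e-08) and Adgre1, a macrophage surface receptor, rose by 0.22 with UD (adjusted p = 0.0142). The summed FPKM of 8 osteoclast markers was between 46.7 and 49.9 in Control, between 2639 and 2843 with RANKL, and between 1665 and 1702 with RANKL+UD, with Calcr at 0 in Control. Markers of stromal, lymphocyte, neutrophil and endothelial cells, summed separately for each type, reached at most 1.86 FPKM in any library. The part of these marker shifts in the chemokine results was not tested, and in RNA from whole cultures fewer cells of a type and less RNA per cell cannot be told apart.

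The genes lie in a few groups in the genome, with coordinates as the deposited table lists them. The table names no build, and none of the 10 genes has the same coordinates in the GRCm38 annotation. Each CC ligand gene lies on chromosome 11. Ccl2 (ENSMUSG00000035385) lies at chr11:81926397-81928279 on the plus strand, and Ccl7 (ENSMUSG00000035373) at chr11:81936538-81938351 on the same strand, 8258 bases away. The second group on chromosome 11 begins with Ccl5 (ENSMUSG00000035042) at chr11:83416604-83421344 and Ccl9 (ENSMUSG00000019122) at chr11:83463745-83469462, both on the minus strand. It goes on with Ccl3 (ENSMUSG00000000982) at chr11:83538670-83540181 on the minus strand and Ccl4 (ENSMUSG00000018930) at chr11:83553410-83555509 on the plus strand, 13228 bases apart. Cxcl2 (ENSMUSG00000058427) lies at chr5:91051730-91053797 on the plus strand. Ccr1 (ENSMUSG00000025804) at chr9:123762161-123768729 on the minus strand and Ccr2 (ENSMUSG00000049103) at chr9:123901987-123913594 on the plus strand are 133257 bases apart, with Ccr3 between them. Cxcr4 (ENSMUSG00000045382) lies at chr1:128515936-128520030 on the minus strand.

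Promoter sequence was taken from RefSeq (GRCm38.p6), where 6 of the 10 genes matched (Ccl3, Ccl9, Cxcl2, Ccr1, Ccr2 and Cxcr4). The 250 bases before the start were searched on both strands for the kB consensus bound by NF-kB, a factor that RANKL activates, for the AP-1 letters TGANTCA, for TTGCNNAA of the C/EBP factors and for GAGGAAG of PU.1. Of these 6 genes, Cxcl2 and Ccl9 held a match, and the other 4 held none of the 4 motifs. Both sequences are shown because these 2 ligands moved in opposite directions with RANKL. They run 5′ to 3′ on the strand of each gene and end at the base before the start, with the letters matching a motif in capitals. Cxcl2 is at chr5:90903649-90903898 on the plus strand and Ccl9 at chr11:83578637-83578886 on the minus strand, both in GRCm38.p6.
Cxcl2: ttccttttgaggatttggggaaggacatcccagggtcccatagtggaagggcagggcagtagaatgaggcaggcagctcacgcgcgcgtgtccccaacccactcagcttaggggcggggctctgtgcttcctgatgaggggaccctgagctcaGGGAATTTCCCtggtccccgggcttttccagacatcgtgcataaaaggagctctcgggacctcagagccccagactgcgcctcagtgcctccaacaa
Ccl9: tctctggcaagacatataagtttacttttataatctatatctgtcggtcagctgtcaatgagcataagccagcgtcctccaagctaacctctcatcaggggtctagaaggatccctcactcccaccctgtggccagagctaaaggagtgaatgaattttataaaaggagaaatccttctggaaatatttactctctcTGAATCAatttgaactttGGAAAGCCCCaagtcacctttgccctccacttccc
The capitals in Cxcl2 are 2 overlapping kB matches, at positions -97 to -88 from the start on the strand of the gene and at -96 to -87 on the opposite strand. In Ccl9 they are a TGANTCA match at -53 to -47 and a kB match at -35 to -26 on the opposite strand. Among 32851 promoter windows of the same length, 3.90% held a kB match, 6.75% TGANTCA, 9.56% TTGCNNAA and 10.6% GAGGAAG. A match describes letters in this window, not a binding event.

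The comparison of RANKL with Control asks how the chemokine genes differ between untreated macrophages and cells driven towards osteoclasts. Ccl9 and Ccr1, a ligand and its receptor, rose, while the ligands Cxcl2, Ccl4 and Ccl2 fell. Of the 9 genes tested, 2 were called higher and 3 lower, or 55.6%, where 57.6% of all genes tested were called. By direction, 27.3% of all genes were called higher and 30.2% lower. The share of chemokine genes called was thus near that of all genes, and the median log2 fold change of the 9 genes was 0.07, against -0.03 over all genes tested. Libraries of both groups did not overlap in 5 of the 9 genes, against 61.0% of all genes.

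The comparison of RANKL+UD with RANKL asks what UD changed in cells that all received RANKL. Ccl2 rose, and Cxcr4, Ccr2, Cxcl2, Ccr1 and Ccl9 fell, so each of the 3 receptors was lower with UD. Of the 9 genes tested, 1 was called higher and 5 lower, or 66.7%, against 38.8% of all genes, of which 18.6% were higher and 20.2% lower. The groups did not overlap in 7 of the 9 genes on the scaled counts, against 49.4% of all genes. The median log2 fold change was -0.26, and 0.005 over all genes tested. In the comparison of RANKL+UD with Control, which shares libraries with both others, 3 genes were called higher and 4 lower, or 77.8%, against 54.0% of all genes, of which 26.7% were higher and 27.3% lower. The libraries of these groups did not overlap in 7 of the 9 genes, against 60.1% of all genes.

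**Figure D1:**
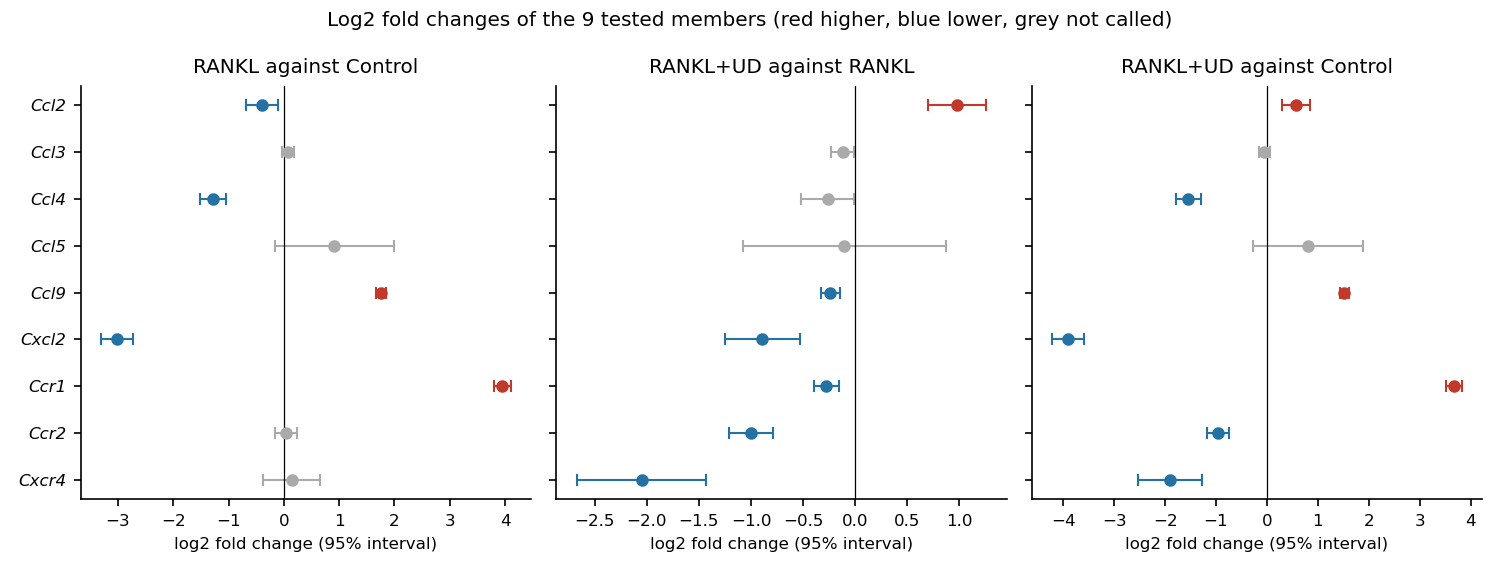
Log2 fold change (horizontal axis, 95% interval as bars) of the 9 tested chemokine and receptor genes in each of the 3 comparisons, with red for genes called higher, blue for lower and grey for not called; each panel has its own axis range. Ccr1 stands at 3.95 and Cxcl2 at -3.01 in RANKL against Control, and Cxcr4 at -2.05 and Ccl2 at 0.98 in RANKL+UD against RANKL.

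Ccl9 had the highest level of the 10 genes in each group. Its FPKM was 265, 264 and 254 in the Control libraries, 828, 809 and 857 with RANKL, and 765, 742 and 737 with RANKL+UD. The 3 groups were separate, with every RANKL+UD library between the Control and the RANKL libraries. Ccl9 rose 3.38-fold with RANKL (log2 fold change 1.76, SE 0.0450, adjusted p = 3.45e-18) and fell by 0.24 on the log2 scale with UD (SE 0.0436, adjusted p = 0.000178), and 339 of the 11995 genes rose more with RANKL. With total counts and no further scaling the fall with UD was -0.15 (adjusted p = 0.00721), and with quantile normalization in limma it was -0.12 (adjusted p = 0.0393). Against Control, RANKL+UD was still higher by 1.52 (adjusted p = 4.15e-17). Of the 2957 stretches of 50 bases in the Ccl9 transcript, 59 also occur in other genes.

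Ccl3, a macrophage inflammatory protein and ligand of CCR1, was the next most abundant member. FPKM was 157, 161 and 155 in Control, 147, 164 and 157 with RANKL, and 159, 149 and 149 with RANKL+UD. The groups overlapped in all 3 comparisons. The log2 fold change was 0.07 with RANKL (95% interval -0.04 to 0.18, adjusted p = 0.262) and -0.12 with UD (95% interval -0.23 to -0.01, adjusted p = 0.0781). Without RANKL replicate 1 the second was -0.16 with an adjusted p of 0.0334. Under total counts or limma the sign of the first changed, with values of -0.02 to -0.08, none of them called. Ccl3 overlaps ENSMUSG00000120024, a gene on the opposite strand whose counts fell by 1.61 on the log2 scale with RANKL and rose by 0.36 with UD. The labels describe strand-specific libraries, but whether the counting used the strand is not given in the sources used here, so the values of Ccl3 are uncertain to that extent.

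Ccl4, a macrophage inflammatory protein, lies next to Ccl3 and differed from it. FPKM was 41.2, 46.4 and 38.9 in Control, 14.5, 15.8 and 18.7 with RANKL, and 14.7, 15.1 and 13.6 with RANKL+UD. Control stood above both other groups, which overlapped in FPKM. Ccl4 fell 2.43-fold with RANKL (log2 fold change -1.28, SE 0.113, adjusted p = 3.31e-09), and UD against RANKL was -0.26 (95% interval -0.52 to -0.01, adjusted p = 0.0971), which did not pass the test. The ratio of the FPKM of Ccl3 to that of Ccl4 was 3.76 ± 0.268 (SD, n = 3) in Control, 9.62 ± 1.05 in RANKL and 10.5 ± 0.568 in RANKL+UD.

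Cxcl2, the neutrophil attractant, was about as abundant as Ccl4 in Control. FPKM was 44.7, 44.8 and 37.0 in Control, 4.29, 5.20 and 5.27 with RANKL, and 3.94, 2.19 and 2.18 with RANKL+UD. The 3 groups did not overlap, and with UD the first library lay above the other two. Cxcl2 fell 8.07-fold with RANKL (log2 fold change -3.01, SE 0.138, adjusted p = 6.02e-14), and 109 of the 11995 genes fell more. With UD it fell again, at -0.89 against RANKL (SE 0.173, adjusted p = 0.000329), a value that ran from -1.26 to -0.74 as each library was left out. RANKL+UD was -3.90 below Control (adjusted p = 3.74e-15). Of 1810 stretches of 50 bases in Cxcl2, 61 also occur in Cxcl3, which had no count in any library.

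Ccl2, the main ligand of CCR2, was the 1 member called higher with UD. FPKM was 8.40, 8.81 and 7.05 in Control, 6.06, 5.59 and 5.73 with RANKL, and 13.01, 10.9 and 12.4 with RANKL+UD. RANKL+UD was above Control and Control above RANKL, with no overlap. The rise with UD was 1.97-fold (log2 fold change 0.98, SE 0.135, adjusted p = 7.32e-06), and 262 genes rose more. RANKL+UD was also above Control, by 0.58 (SE 0.132, adjusted p = 0.000833). With RANKL it fell to 0.76 times the Control level (log2 fold change -0.40, SE 0.139, adjusted p = 0.0193). That call was lost without Control replicate 1 (-0.37, adjusted p = 0.0558), without Control replicate 2 (-0.33, adjusted p = 0.0865) or without RANKL replicate 2 (-0.37, adjusted p = 0.0588). Gm17268, which overlaps Ccl2 on the opposite strand, had no counts.

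Cxcl2 and Ccl2 thus changed places in order of level. The ratio of the FPKM of Cxcl2 to that of Ccl2 was 5.22 ± 0.123 (SD, n = 3) in Control, 0.853 ± 0.125 in RANKL and 0.227 ± 0.0670 in RANKL+UD.

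Ccl5, a ligand of CCR1, was near the limit of detection. Its counts were 6, 5 and 15 in Control, 25, 14 and 13 with RANKL, and 19, 11 and 17 with RANKL+UD, or at most 1.32 FPKM. All groups overlapped. The log2 fold change was 0.91 with RANKL (95% interval -0.16 to 1.98, adjusted p = 0.138) and -0.11 with UD (95% interval -1.08 to 0.87, adjusted p = 0.888), and these intervals leave room for changes in either direction with UD. Control replicate 3, with 15 counts, decided the first: without it the log2 fold change was 1.63 with RANKL (adjusted p = 0.0233). RANKL+UD against Control was 1.53 without that library (adjusted p = 0.0373), beside 0.81 with all libraries (adjusted p = 0.204). Ccl5 reached the filter only through libraries that received RANKL, so it was selected by the groups where it is higher. With all libraries and no filter, the adjusted p against Control was 0.211 for RANKL and 0.298 for RANKL+UD.

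Ccl7, the other ligand of CCR2 here, did not reach the filter. Its counts were 4, 2 and 0 in Control, 1, 4 and 6 with RANKL, and 8, 36 and 7 with RANKL+UD. Every RANKL+UD library was above every other library, and replicate 2 of RANKL+UD held most of the counts of that group. With no filter on low values, over 26736 genes, the log2 fold change with UD was 2.27 (adjusted p = 0.0118). Without RANKL+UD replicate 2 it was 0.99 (adjusted p = 0.663), and without RANKL replicate 1 it was 1.83 (adjusted p = 0.0895). RANKL+UD against Control was 3.07 (adjusted p = 0.000536), and 1.79 (adjusted p = 0.301) without RANKL+UD replicate 2. Leaving out libraries in this unfiltered test of Ccl7 was chosen after seeing the data.

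**Figure D2:**
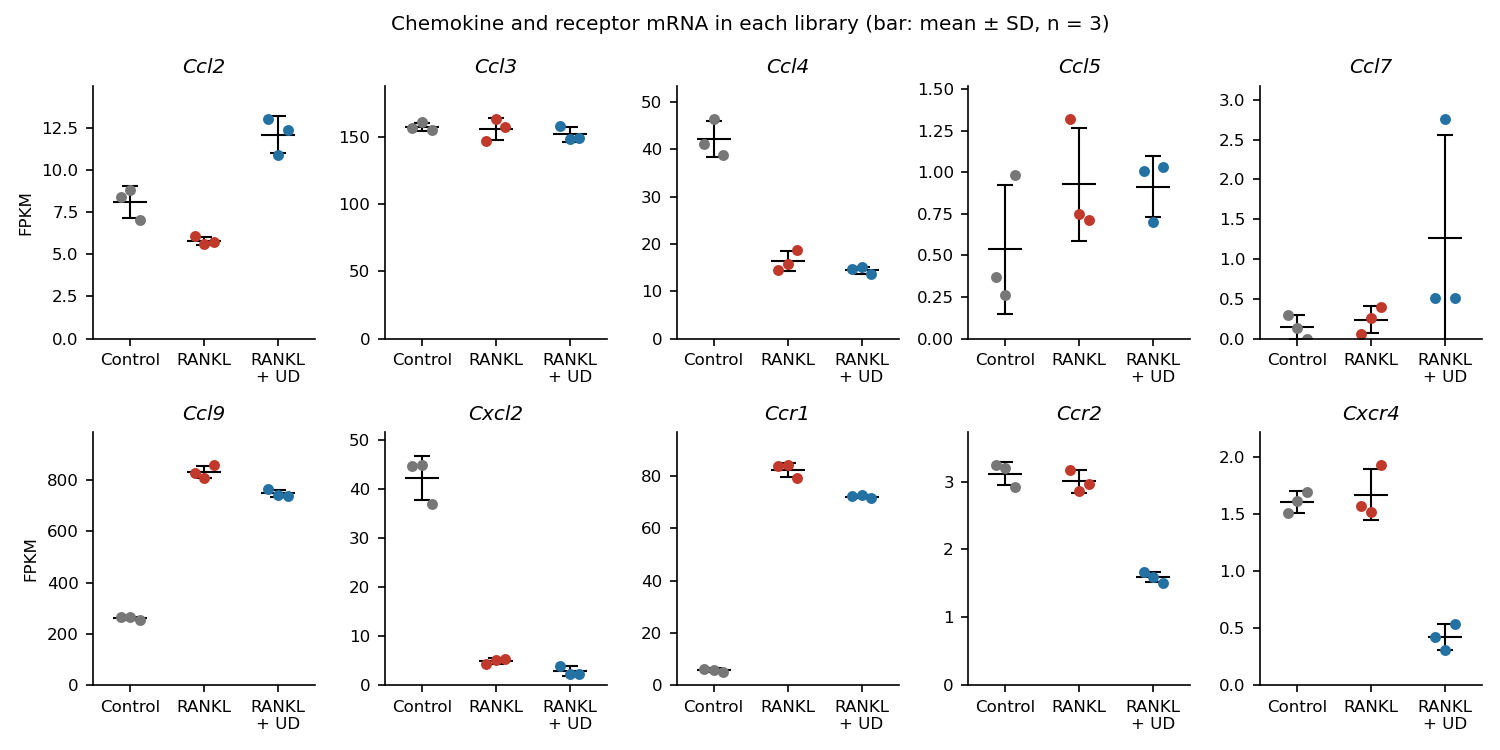
FPKM (vertical axis, starting at 0, with a range of its own for each gene) of the 10 genes in each library, with 1 point a library, grouped as Control, RANKL and RANKL+UD, and bars for the mean ± SD of 3 libraries. Ccl9 and Ccr1 are high in both groups that received RANKL, Ccl4 and Cxcl2 are high in Control, Ccr2 and Cxcr4 are low only in RANKL+UD, and 1 RANKL+UD library stands apart for Ccl7 at 2.76.

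Added together, the 7 ligands made a larger pool with RANKL that consisted mostly of Ccl9. Their summed FPKM was 512 ± 16.8 (SD, n = 3) in Control, 1015 ± 25.8 in RANKL and 932 ± 21.7 in RANKL+UD. Ccl9 made up 51.0% ± 0.678 of this sum in Control, 81.9% ± 0.906 in RANKL and 80.3% ± 0.297 in RANKL+UD. The share of Ccl3 was 30.8%, 15.4% and 16.3% in the same order, and that of Cxcl2 was 8.23%, 0.484% and 0.296%. The 38 chemokine ligands looked up in the table, these 7 included, summed to 563, 1027 and 943 FPKM, so the 7 made up most of the ligand mRNA in each group.

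**Figure D3:**
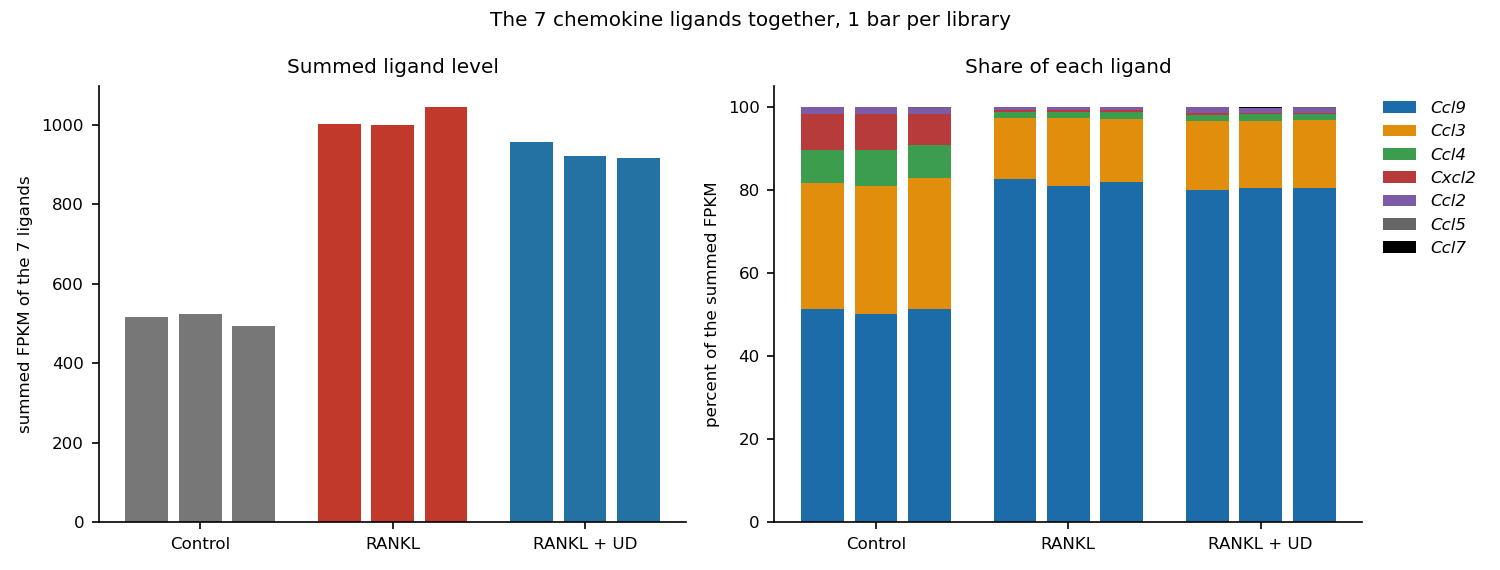
Left, summed FPKM of the 7 ligands with 1 bar a library (axis from 0), and right, the percent of that sum held by each ligand. The sum runs from 493 to 525 in the Control libraries, from 1000 to 1045 with RANKL and from 916 to 956 with RANKL+UD, and the share of Ccl9 is at least 79.9% in every library that received RANKL.

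Ccr1, the receptor of CCL3, CCL5 and CCL9, was the 1 of the 3 member receptors called higher with RANKL. FPKM was 6.29, 5.83 and 4.80 in Control, 84.0, 84.1 and 79.2 with RANKL, and 72.4, 72.7 and 71.5 with RANKL+UD. The groups were separate, with RANKL+UD just under RANKL. The rise with RANKL was 15.5-fold (log2 fold change 3.95, SE 0.0712, adjusted p = 1.38e-20), and 105 of the 11995 genes rose more. With UD it fell by 0.28 on the log2 scale (SE 0.0567, adjusted p = 0.000535), and RANKL+UD stayed 3.68 above Control (adjusted p = 5.92e-20). In limma on log2 FPKM values the fall with UD was not called, at -0.19 (adjusted p = 0.0735) with a pseudocount of 1, -0.19 (adjusted p = 0.105) with a pseudocount of 0.1 and -0.20 (adjusted p = 0.0703) after quantile normalization. The osteoclast markers also moved in these directions, as 7 of 8 passed the filter and each of the 7 rose with RANKL and fell with UD, among them Ctsk, the collagen-degrading protease of osteoclasts, at 7.57 and -0.86. Some of the 7, though not Ctsk, reached the filter only because of libraries that received RANKL.

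Ccr2, the receptor of CCL2 and CCL7, did not differ detectably between RANKL and Control and was lower with UD. FPKM was 3.24, 3.20 and 2.92 in Control, 3.18, 2.86 and 2.97 with RANKL, and 1.67, 1.60 and 1.51 with RANKL+UD. Control and RANKL overlapped, and every RANKL+UD library was below both. The fall with UD was 2.00-fold (log2 fold change -1.001, SE 0.102, adjusted p = 1.34e-07), 299 genes fell more, and RANKL+UD was -0.97 below Control (adjusted p = 6.54e-08). RANKL against Control was 0.03 (95% interval -0.17 to 0.23, adjusted p = 0.794), and its sign changed under total counts. With a pseudocount of 1 in limma the fall with UD was -0.63 (adjusted p = 0.000160). Of 5679 stretches of 50 bases in Ccr2, 129 also occur in other genes.

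Cxcr4, the CXCL12 receptor, had the largest fall of the 9 genes with UD. Its counts were 46, 58 and 49 in Control, 56, 53 and 67 with RANKL, and 15, 9 and 17 with RANKL+UD, or 1.51, 1.62 and 1.70, then 1.57, 1.52 and 1.93, then 0.42, 0.31 and 0.54 FPKM. Control and RANKL overlapped, and RANKL+UD lay below both. The fall with UD was 4.15-fold (log2 fold change -2.05, SE 0.298, adjusted p = 1.32e-05), with a range of -2.26 to -1.87 as each library was left out, and 57 of the 11995 genes fell more. RANKL+UD against Control was -1.91 (adjusted p = 1.63e-05), while RANKL against Control was 0.14 (95% interval -0.37 to 0.66, adjusted p = 0.649). On the log2(FPKM + 1) scale the fall with UD was -0.91 (adjusted p = 0.000210), a scale that understates changes of genes at this level. Cxcr4 reached the filter only through the Control and RANKL libraries, so it was selected by the groups where it is higher. Without the filter the fall with UD was -2.05 (adjusted p = 7.22e-09), and RANKL+UD against Control was -1.89 (adjusted p = 8.08e-08).

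The balance of the receptors shifted in both steps. The ratio of the FPKM of Ccr1 to that of Ccr2 was 1.80 ± 0.150 (SD, n = 3) in Control, 27.5 ± 1.66 in RANKL and 45.4 ± 2.00 in RANKL+UD. The ratio was higher in every RANKL+UD library, at 43.3 to 47.3, than in every RANKL library, at 26.4 to 29.4.

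In order of mean FPKM, the genes ran Ccl9, Ccl3, Ccl4, Cxcl2, Ccl2, Ccr1, Ccr2, Cxcr4, Ccl5 and Ccl7 in Control. Neighbours in this order whose libraries overlapped were Ccl4 with Cxcl2 and Ccl5 with Ccl7. With RANKL, Ccr1 moved up to follow Ccl3, and Cxcl2 dropped below Ccl2, with no overlap between any neighbours. With RANKL+UD, Cxcr4 was last. The libraries of Ccl7 overlapped with those of Cxcl2, Ccr2, Ccl5 and Cxcr4. For Ccl7, 1 library held 2.76 FPKM and the others 0.51 each, so its place rests on the library at 2.76.

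The known partners of some members were scarce in these cultures. Cxcl12, the ligand of CXCR4, had at most 12 counts in a library, and Cxcr2, the receptor of CXCL2, at most 4, both named here for this pairing after their values were seen. Of 31 other chemokine ligands, 5 passed the filter, 19 had 3 counts or fewer in every library, and 13 of those had none. Cxcl16, a membrane-bound chemokine made by macrophages, fell from 41.2 ± 1.71 FPKM (SD, n = 3) in Control to 4.49 ± 0.270 with RANKL (log2 fold change -3.11, adjusted p = 1.13e-18) and to 3.12 ± 0.162 with RANKL+UD (-0.61 against RANKL, adjusted p = 1.63e-05). Cxcl10, an interferon-induced chemokine, fell by 2.53 on the log2 scale with RANKL (adjusted p = 4.41e-08) and rose by 1.26 with UD (adjusted p = 0.00155). Cxcl10 reached the filter only because of the Control libraries, where it is highest. Without the filter the values were -2.52 (adjusted p = 2.17e-17) and 1.26 (adjusted p = 0.000495). Ccl25, a lymphocyte attractant, rose by 1.25 with UD (adjusted p = 1.03e-06) without passing the test for RANKL against Control (-0.31, adjusted p = 0.103). Ccl25 reached the filter only because of the RANKL+UD libraries, so it was selected by the group where it is higher. Without the filter its rise with UD was 1.26 (adjusted p = 3.42e-14). Ccl6, which lies between Ccl9 and Ccl3, fell by 0.66 with UD (adjusted p = 0.00737) and lies within E230016K23Rik on the opposite strand, so its counts carry the same uncertainty as those of Ccl3. Pf4, platelet factor 4, had 27, 30 and 18 counts in Control, 0, 5 and 7 with RANKL, and 5, 6 and 11 with RANKL+UD. It reached the filter only through the Control libraries, so it was selected by the group where it is higher. Pf4 fell by 2.66 with RANKL (adjusted p = 0.000682, and 5.14e-05 without the filter) and was 0.90 with UD (adjusted p = 0.353).

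Of 21 other chemokine receptors, atypical receptors included, 6 passed the filter. Ccr3, which lies between Ccr1 and Ccr2 and is known as a receptor of eosinophils, had 0, 2 and 0 counts in Control, 353, 369 and 366 with RANKL, and 296, 300 and 245 with RANKL+UD. Both groups that received RANKL were far above Control, with a ratio of 491 for RANKL (exact 95% counting interval 135.6 to 4059). Ccr3 reached the filter only through libraries that received RANKL, so it was selected by the groups where it is higher. Without the filter the log2 fold change of Ccr3 with RANKL was 8.80 (adjusted p = 2.65e-164). UD against RANKL was -0.32 (adjusted p = 0.0531) and did not pass. Cx3cr1, the fractalkine receptor of monocytes and macrophages, had 182 ± 9.73 FPKM (SD, n = 3) in Control, 22.6 ± 1.28 in RANKL and 26.3 ± 0.711 in RANKL+UD, a fall of -2.93 with RANKL (adjusted p = 2.89e-20) and 0.13 with UD (adjusted p = 0.0560). Ccrl2, an atypical receptor that does not signal through G proteins, fell by 0.47 with RANKL (adjusted p = 0.0451) and by 0.93 with UD (adjusted p = 0.00195). Ccrl2 reached the filter through the Control and RANKL libraries, where it is higher. Without the filter its fall with UD was -0.92 (adjusted p = 0.000108). The other 3 tested were Cxcr3, Cxcr5 and Ccr10, none of which passed for UD against RANKL. Cxcr3 was called higher with RANKL, by 0.85 (adjusted p = 0.0334, and 0.0222 without the filter). Its counts of 20, 30 and 20 in Control overlapped those of 56, 24 and 51 with RANKL. Cxcr3 reached the filter only through libraries that received RANKL, so it was selected by the group where it is higher.

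Past Ccl4, the nearest gene with more than 1 count in a library was Wfdc17, a secreted protein gene, which fell by 3.81 on the log2 scale with RANKL (adjusted p = 3.98e-15) and was 0.09 with UD (adjusted p = 0.756). Ccl11, next to Ccl7, had no counts. Ccl12, which follows Ccl11, had at most 1 count in a library, and Cxcl1, which a ribosomal RNA gene without counts separates from Cxcl2, at most 3.

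Chemokine receptors signal through G proteins of the inhibitory class, small GTPases and phosphoinositide 3-kinase gamma, and are switched off by receptor kinases (Grk genes), arrestins and RGS proteins, which speed up the shut-off of G proteins. Of 33 genes of this kind, 32 passed the filter. With RANKL, 6 were called higher and 20 lower, or 81.2% against 57.6% of all genes, with a median log2 fold change of -0.31. With UD against RANKL, 3 were called higher (Arrb1, Rac2 and Plcb2) and 12 lower, or 46.9% against 38.8% of all genes, with a median of -0.09. Plcb2 passed at 0.13 (adjusted p = 0.0489) and lost its call without the filter (adjusted p = 0.106).

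Of the 6 RGS genes in that group, 4 fell with UD (Rgs1, Rgs16, Rgs2 and Rgs18), by more than any other gene of the group, while Rgs14 was at -0.12 (adjusted p = 0.522) and Rgs19 at -0.06 (adjusted p = 0.581). Rgs1 had 55.2 ± 0.935 FPKM (SD, n = 3) in untreated cells, 28.8 ± 1.37 with RANKL and 10.1 ± 0.277 with RANKL+UD, and it fell by 0.85 with RANKL (adjusted p = 2.45e-12) and by 1.60 (adjusted p = 8.35e-15) with UD. Rgs2 had 75.9 ± 2.27, 57.0 ± 3.31 and 29.6 ± 1.17 FPKM in the same order, and fell by 1.03 with UD (adjusted p = 8.35e-12). Rgs16 rose from 1.22 ± 0.168 to 28.0 ± 0.912 FPKM with RANKL (log2 fold change 4.61, adjusted p = 5.09e-19) and stood at 14.0 ± 0.408 with RANKL+UD (-1.09 against RANKL, adjusted p = 6.67e-10). Rgs18 fell by 1.47 with RANKL (adjusted p = 7.33e-07) and by 0.69 with UD (adjusted p = 0.0161). Grk3, a receptor kinase, had no count in any Control library and 347 to 424 counts with RANKL, at least 115.5-fold higher than a floor of 3 counts per Control library. It fell by 0.32 with UD (adjusted p = 0.0353), a call that was lost without the filter (adjusted p = 0.0568). Grk3 reached the filter only through libraries that received RANKL, so it was selected by the groups where it is higher.

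**Figure D4:**
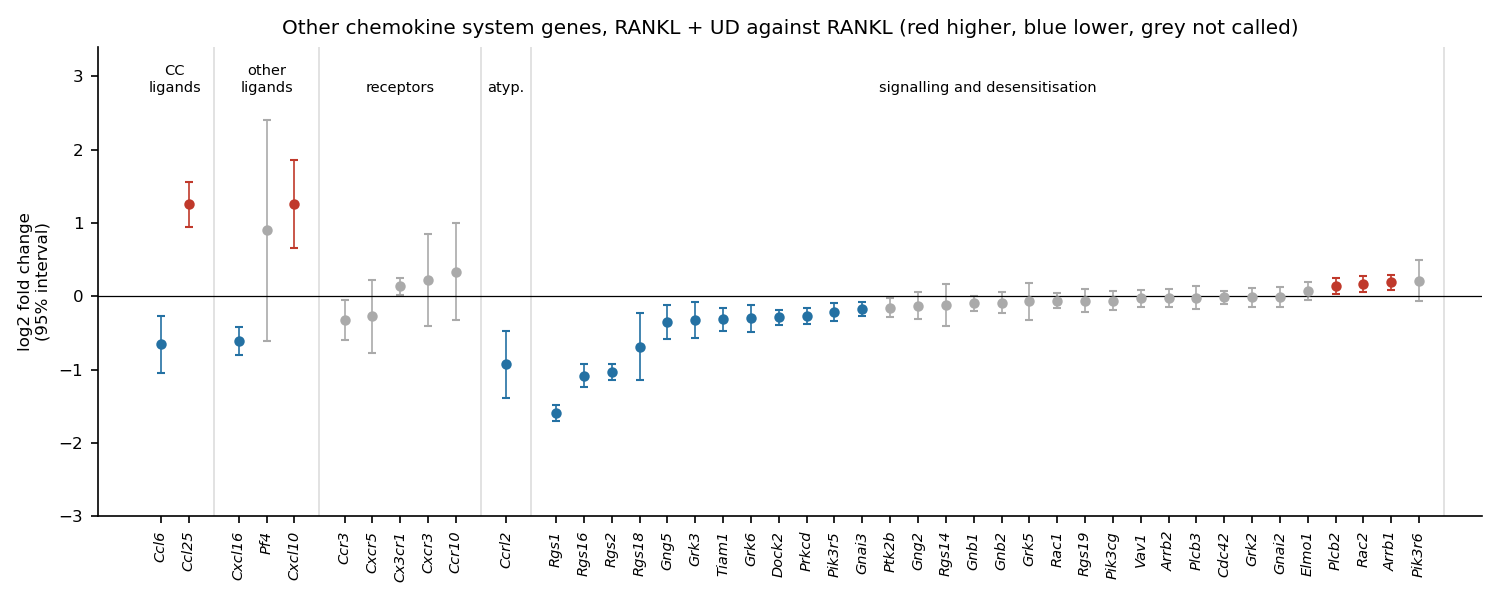
Log2 fold change (vertical axis, 95% interval as bars) of the tested chemokine system genes outside the 10 members in RANKL+UD against RANKL, grouped as other CC ligands, other ligands, receptors, the atypical receptor and signalling genes, with red for higher, blue for lower and grey for not called. Rgs1 is lowest at -1.60, Cxcl10 and Ccl25 stand near 1.26 and 1.25, and none of the 5 receptors passed the test.

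Tested genes outside the chemokine, receptor, signalling and marker lists were compared with each member, so a closer gene within those lists is not shown. The comparison is a description with no test. Of the genes compared, those most like each member had the smallest root mean square difference of centred log2 values over the 9 libraries. For Ccl2 they were Fubp1 (0.103), Pigm and Yod1, and Fubp1 stood at 14.3, 9.96 and 19.3 FPKM in Control, RANKL and RANKL+UD. For Ccr1 they were Fosl2 (0.115), a factor of the AP-1 family at 5.14, 64.3 and 65.5 FPKM, Slc12a5 and Card14. Ccl9 was most like Micall1 (0.0492), Ptpn22 and Rcan1, and Micall1 stood at 3.39, 10.3 and 9.52 FPKM. Ccr2 was most like Arhgap25 (0.0778), Tgif1 and Klf6, and Cxcr4 like F10 (0.187), the gene of coagulation factor X, Ndrg1 and Gm7592, with Ndrg1 at 47.2, 49.98 and 13.6 FPKM. Ccl4 was most like Klf3 (0.1002), Dse and Ctsl, and Cxcl2 like Bhlhe41 (0.245), Gm10134 and Cped1. Ccl3 was most like Smarcc2 (0.0337), Chmp7 and Cwc15, and Ccl5 like Gm2606 (0.343), Angptl2 and 2310039H08Rik, while Ccl7 was not compared because it did not pass the filter. The differences for Cxcl2 and Ccl5 were larger than those of Ccl9 and Ccl3.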

How the data were processed

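RNA-seq libraries of 9 RAW264.7 biosamples, 3 a group by their labels, were analysed. The authors deposited, for each gene and library, the raw read count and the FPKM, which recomputes from count, exonic length and library total. The submitters' processing notes name mm10, while the table's coordinates differ from GRCm38; the aligner, the counting tool and its strand setting are not given in the sources used here. Totals limit genes such as Ccl5 and Ccl7 to a few counts a library. Counting intervals and floors cover counting error only.

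Counts were scaled by TMM and tested with edgeR 4.0.16 in R 4.3.3 (quasi-likelihood, all 9 libraries in one fit, Benjamini-Hochberg adjustment) over the 11995 genes that reached an FPKM of 1 in 3 or more libraries. Counts of libraries of a group differed by more than sampling noise (chi-square per degree of freedom 2.90 to 8.89), so none were merged. Alternatives were no filter, RLE factors, total counts, DESeq2 1.42.0, limma 3.58.1 on log2(FPKM + 1), a pseudocount of 0.1, quantile normalization, the 6 libraries of a comparison, a replicate block and each library left out. Scripts were tested on simulated data.

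The 10 genes, the other lists and the tests were chosen with earlier results of these data known. Named are all 10 genes and, from each other list, up to 4 genes called in RANKL+UD against RANKL by size of change. Up to 2 per list were named by the same measure in RANKL against Control, with genes beside members. The 3 genes outside the lists most like each tested member were also named. The exceptions Lyz2, Cd68, Adgre1, Rgs14, Rgs19, Wfdc17, Cxcl1, Ccl12, Cxcl12, Cxcr2, Ctsk, Mertk, Calcr, Arrb1, Rac2, Plcb2, Cxcl3, Cxcr3, Cxcr5 and Ccr10 were named after their values were seen. Stretches of 50 bases were compared between the transcripts of the GRCm38 annotation. A result for one further gene is not reported here.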

Additional observations from a re-analysis of the deposited data

How the results depend on the processing

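Of 513 values for single genes of the 10 under the alternatives, 489 kept their direction and their side of the threshold, 9 lost a call, 3 gained a call and 12 changed sign, and none of the 12 was called. The sign changes for RANKL against Control were in Ccl3, at -0.017 with total counts, -0.017 with limma on log2(FPKM + 1), -0.017 with a pseudocount of 0.1 and -0.083 with quantile normalization, and in Ccr2, at -0.056, -0.041 and -0.053 with the first 3 of these, -0.012 without Control replicate 3 and -0.013 without RANKL replicate 1 (range with each library left out -0.013 to 0.067). For RANKL+UD against RANKL they were in Ccl5, at 0.013 with limma and a pseudocount of 0.1, 0.24 without RANKL replicate 1 and 0.046 without RANKL+UD replicate 2 (range with each library left out -0.27 to 0.24). Without a filter, 2 of the 10 genes were called higher in RANKL+UD against RANKL, since Ccl7 was added to Ccl2. Over all genes in that comparison, 2233 were called higher and 2418 lower (48.0% higher), against 3350 higher and 1707 lower with total counts (66.2% higher), and limma called 1556 lower, or 1536 with the smaller pseudocount (65.7% and 66.0% higher); for RANKL against Control 47.5% of calls were higher, and 36.8% with total counts, 36.9% and 37.0% with limma. With total counts the median log2 fold change of all genes was -0.12 for RANKL against Control and 0.09 for RANKL+UD against RANKL, beside -0.03 and 0.005 with TMM. With each library left out, 1853 to 2461 genes were called higher and 2094 to 2604 lower in RANKL+UD against RANKL. Same-numbered libraries of different groups had correlations of their deviations of -0.03 to 0.10, so the numbers were not taken as pairs; the replicate block called 2347 genes higher and 2518 lower there and changed no call of the 10 genes. The cause of these shifts was not tested. Depth limits Ccl5, Ccl7 and Cxcr4 most, and with 3 libraries a group an exact test of one gene cannot go below a two-sided p of 0.1.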
